A study of Mus musculus with 3 samples.

Results

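Macrophages called M2 in this deconvolution fall into a Cx3cr1-hi and a Cx3cr1-lo subset, and both were followed here in spatial RNA sequencing of regenerating mouse muscle. After muscle injury, monocytes enter from the blood and give rise first to inflammatory and then to repair macrophages, which clear debris and support new fiber growth. Cx3cr1 encodes the fractalkine receptor, which many tissue macrophages carry, while Mrc1 (the mannose receptor CD206) and C1qa (a subunit of complement C1q) are common markers of M2-type macrophages. Fibro-adipogenic progenitors (FAPs) are the connective tissue progenitors of muscle, and fusing myocytes are the differentiating myogenic cells that join to form new fibers.

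The samples were 3 sections of tibialis anterior muscle from C57BL6/J mice aged 5 months, collected at 2, 5 and 7 days after notexin injection (dpi), with 1 section per time point. Notexin is a snake venom phospholipase that kills myofibers and leaves the muscle stem cells (MuSCs) able to rebuild them. All 3 sections were injured, and each value describes 1 section of 1 muscle, so variation from animal to animal was not measured and p-values are left out. For each capture spot, which pools the RNA of several cells or cell parts, the tables give the count of unique molecular identifiers (UMIs, which mark single captured molecules), the percent of UMIs from mitochondrial and from ribosomal protein genes, and a theta value for each of 27 cell types. Theta is the estimated fraction of a spot's transcripts that came from a cell type, and the 27 values of a spot sum to 1, so a rise in 1 type lowers the others.

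Members were the spots in which the theta values of the Cx3cr1-hi and Cx3cr1-lo subsets summed to at least 0.02. They numbered 986 of 2758 spots. The 2 dpi section held 362 of them among 859 spots (42.1%), the 5 dpi section 240 among 933 (25.7%) and the 7 dpi section 384 among 966 (39.8%). The hi fraction of a spot was its Cx3cr1-hi theta divided by the sum of both. Spots at a hi fraction of at least 0.7 are called Cx3cr1-hi spots, those at 0.3 or below Cx3cr1-lo spots, and the rest mixed spots. The members were thus chosen by the theta values of both subsets, whose levels in the classes are given only as a description. The label was not checked against Cx3cr1, Mrc1 and C1qa, because the gene-level counts were not analysed here, and the subsets carry the names of the authors' reference. Spots of a section share an animal and a tissue piece and are not replicates. The barcodes mark array positions, of which 568 were in both the 2 and 5 dpi tables, 739 in the 2 and 7 dpi tables, 593 in the 5 and 7 dpi tables and 505 in all 3. Each interval below is an exact Clopper-Pearson interval at 95% that takes account of the counting of spots and of no other error.

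The balance of the subsets lay toward Cx3cr1-lo at 2 dpi and toward Cx3cr1-hi at 5 and 7 dpi. The hi fraction over members at 2 dpi ran from 0.0414 to 0.987 with a median of 0.397. It ran from 0.112 to 0.985 with a median of 0.735 at 5 dpi, and from 0.0449 to 0.994 with a median of 0.759 at 7 dpi. All 3 sections thus held spots near both ends, and the sections overlapped over most of the range. The hi fraction was above 0.5 in 115 of 362 members at 2 dpi (31.8%), in 190 of 240 at 5 dpi (79.2%) and in 306 of 384 at 7 dpi (79.7%). Over all spots it was above 0.5 in 306 of 859 (35.6%), 473 of 933 (50.7%) and 577 of 966 (59.7%). By the count of all spots, the 5 dpi section was thus near an even split. Summed over all spots of a section, members or not, Cx3cr1-hi theta made up 0.430, 0.711 and 0.686 of the theta of both subsets at 2, 5 and 7 dpi. A lower share of transcripts can come from fewer cells or from less RNA per cell, which cannot be told apart here.

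**Figure D1:**
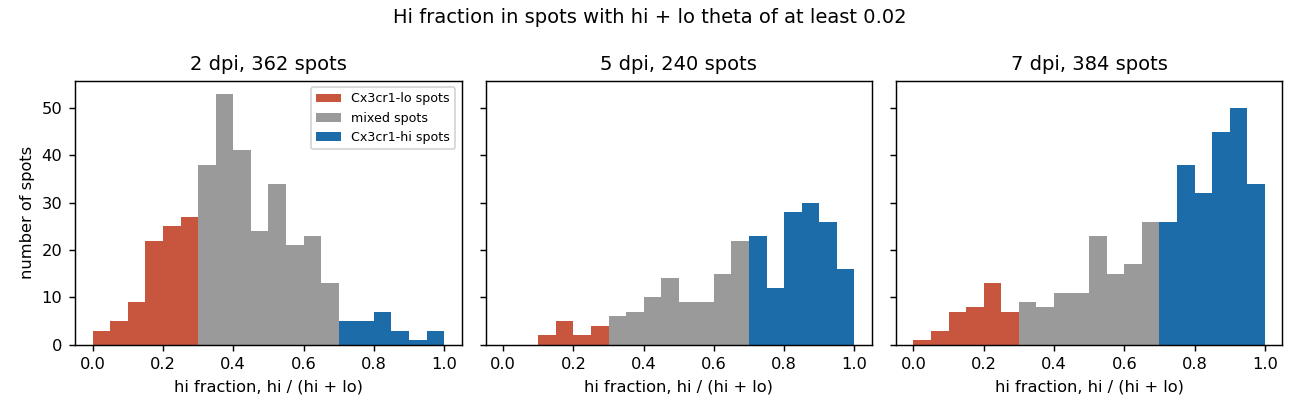
Number of member spots by hi fraction (horizontal axis, 0 to 1) in the sections at 2, 5 and 7 dpi, with Cx3cr1-lo spots in red, mixed spots in grey and Cx3cr1-hi spots in blue. The bulk of the 362 spots at 2 dpi lies below 0.5, around the median of 0.397, while the 240 and 384 spots at 5 and 7 dpi pile up toward 1.

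At 2 dpi, 24 members were Cx3cr1-hi spots (6.63%, interval 4.29 to 9.70%), 247 were mixed and 91 were Cx3cr1-lo spots (25.1%, 20.8 to 29.9%). At 5 dpi, the counts were 135 Cx3cr1-hi (56.2%, 49.7 to 62.6%), 92 mixed and 13 Cx3cr1-lo spots (5.42%, 2.92 to 9.08%). At 7 dpi, they were 225 Cx3cr1-hi (58.6%, 53.5 to 63.6%), 120 mixed and 39 Cx3cr1-lo spots (10.2%, 7.32 to 13.6%). Among members, the share of Cx3cr1-hi spots was lower and that of Cx3cr1-lo spots higher at 2 dpi than at 5 and 7 dpi. The intervals cover only the counting of spots within a section, and such spots are not replicates. The intervals therefore cannot decide whether time points differ, and no difference between sections was tested.

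The limits of the classes cut through a continuous range. The lowest member sum was 0.020 in the 3 sections and the highest sum left out was 0.0198 to 0.0199. Just inside the upper limit, at a hi fraction of 0.7 to 0.75, lay 5, 23 and 26 spots at 2, 5 and 7 dpi, and just outside, at 0.65 to 0.7, lay 13, 22 and 26. At the lower limit, 27, 4 and 7 spots lay between 0.25 and 0.3, and 38, 6 and 9 between 0.3 and 0.35. At 2 dpi more members thus lay just outside each limit than just inside it.

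In Cx3cr1-hi spots, the Cx3cr1-hi theta ran from 0.0153 to 0.362 at 2 dpi (median 0.0428), from 0.0160 to 0.273 at 5 dpi (median 0.0512) and from 0.0153 to 0.214 at 7 dpi (median 0.0434). In Cx3cr1-lo spots, the Cx3cr1-lo theta ran from 0.0146 to 0.167 at 2 dpi (median 0.0391), from 0.0161 to 0.0644 at 5 dpi (median 0.0217) and from 0.0185 to 0.123 at 7 dpi (median 0.0372). The medians of the Cx3cr1-hi spots were close in the 3 sections, while that of the Cx3cr1-lo spots was lowest at 5 dpi. The highest Cx3cr1-hi theta of the series, 0.362 at 2 dpi, was in a spot of 12144 UMIs that also held 0.228 of patrolling monocytes. The highest Cx3cr1-lo theta, 0.167, was also at 2 dpi, in a spot with 0.0756 of M1 macrophages, the inflammatory macrophage type. At 5 dpi, the spot with the most Cx3cr1-lo theta (0.0645) held nearly as much Cx3cr1-hi theta (0.0564) and was a mixed spot.

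Over all spots of a section, the thetas of both subsets rose and fell together, with a Spearman's rho of 0.84, 0.85 and 0.67 at 2, 5 and 7 dpi. Among members, this link was near 0 or negative (0.07, -0.20 and -0.27) in spots picked by a minimum on the sum of both. These correlations are over spots that share depth and base level, and are given as a description.

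**Figure D2:**
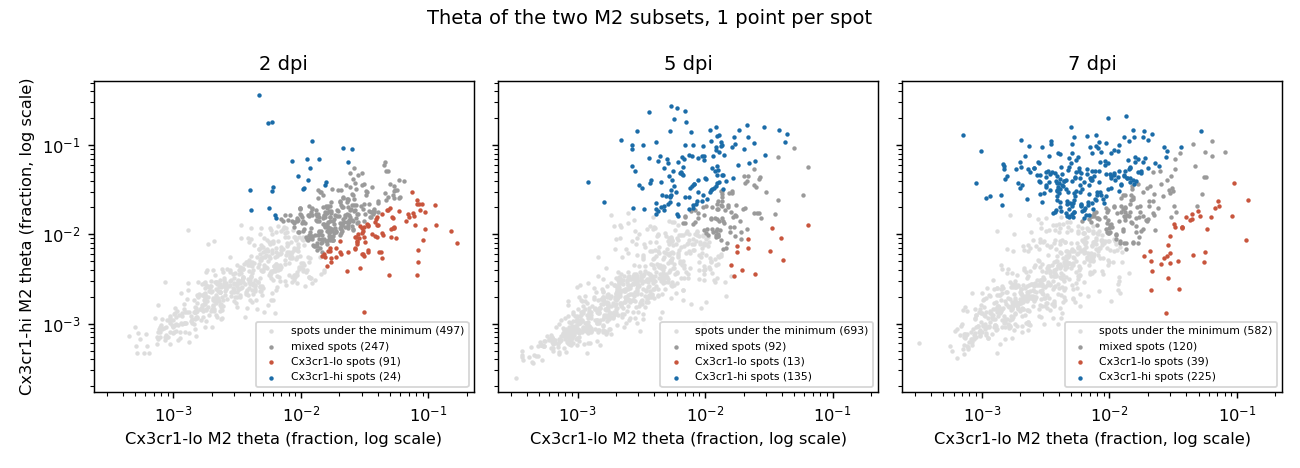
Cx3cr1-hi theta against Cx3cr1-lo theta on log axes, 1 point per spot, in the sections at 2, 5 and 7 dpi, with Cx3cr1-hi spots in blue, mixed spots in dark grey, Cx3cr1-lo spots in red and spots under the minimum sum in light grey. The spots under the minimum follow a diagonal, and the members spread away from it in both directions at 7 dpi (225 Cx3cr1-hi and 39 Cx3cr1-lo spots), mostly upward at 5 dpi (135 and 13).

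How far the M2 theta stood above the base level of a spot differed between sections. The larger subset was a median of 2.47 times the median theta of the spot's other 25 types at 2 dpi, 6.76 times at 5 dpi and 10.3 times at 7 dpi. It reached 3 times that level in 137 members (37.8%) at 2 dpi, in 192 members (80%) at 5 dpi and in 340 members (88.5%) at 7 dpi. At 2 dpi most members therefore held neither subset at 3 times the level of a typical type of the spot. Among members past 3 times that level, a limit chosen after seeing the data, 21 were Cx3cr1-hi and 67 Cx3cr1-lo spots at 2 dpi, 129 and 13 at 5 dpi, and 222 and 36 at 7 dpi. The median hi fraction in them was 0.302, 0.804 and 0.787, so the balance of the 2 dpi section stayed below that of the later ones.

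Depth moved with the classes. The median UMI count at 2 dpi was 6850 in Cx3cr1-hi, 3222 in mixed and 4512 in Cx3cr1-lo spots. At 5 dpi it was 15343 in Cx3cr1-hi and 10229 in Cx3cr1-lo spots, and at 7 dpi 20286 and 11944. Cx3cr1-hi spots were thus 1.52, 1.5 and 1.70 times as deep as Cx3cr1-lo spots, with overlapping ranges in each section. Over members, the hi fraction followed the UMI count with a rho of 0.54 at 5 dpi and 0.53 at 7 dpi, and -0.02 at 2 dpi. The part of depth in the differences between classes was not tested, and the ratios below are given also within groups of spots of like UMI count.

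Mitochondrial transcripts took a smaller share of Cx3cr1-hi than of Cx3cr1-lo spots at the later time points. The median was 8.62% against 13.1% at 5 dpi and 11.1% against 13.1% at 7 dpi, while at 2 dpi it was 18.4% against 14.9%. Spots under the minimum had more in each section, with medians of 34.3%, 29.0% and 23.8% at 2, 5 and 7 dpi. Ribosomal protein transcripts, which rise in cells that build much protein, made up a median of 13.0% of UMIs in Cx3cr1-hi and 9.11% in Cx3cr1-lo spots at 5 dpi, 10.7% and 9.77% at 7 dpi, and 8.12% and 8.53% at 2 dpi. The ranges of the classes overlapped for both measures in every section. Within spots of like myonuclei theta at 5 dpi, the mitochondrial ratio of Cx3cr1-hi to Cx3cr1-lo spots turned from 0.657 to 1.08 and the ribosomal ratio fell from 1.43 to 0.964. Only 1 group of spots held enough of both classes for this.

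The other 25 types were compared by the ratio of mean theta in Cx3cr1-hi over Cx3cr1-lo spots within a section, and a type counted as higher or lower from 1.5-fold on. At 2 dpi, 1 type was higher (4%) and 2 were lower (8%) in Cx3cr1-hi spots. At 5 dpi, 9 were higher (36%) and 1 was lower (4%), and at 7 dpi 3 were higher (12%) and 8 were lower (32%). Most theta belonged to myonuclei, the nuclei of mature fibers, so theta was also rescaled to sum to 1 over the types other than type IIb and type IIx myonuclei. Among the 23 types left on that scale, 1 was higher (4.35%) and 5 were lower (21.7%) at 2 dpi, 3 (13%) and 4 (17.4%) at 5 dpi, and 2 (8.7%) and 13 (56.5%) at 7 dpi. The split between higher and lower at 5 dpi thus depended on the scale. Across the sections, 15 of 25 types differed in direction between time points before rescaling, 5 were higher in Cx3cr1-hi spots in all 3 and 5 were lower in all 3.

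**Figure D3:**
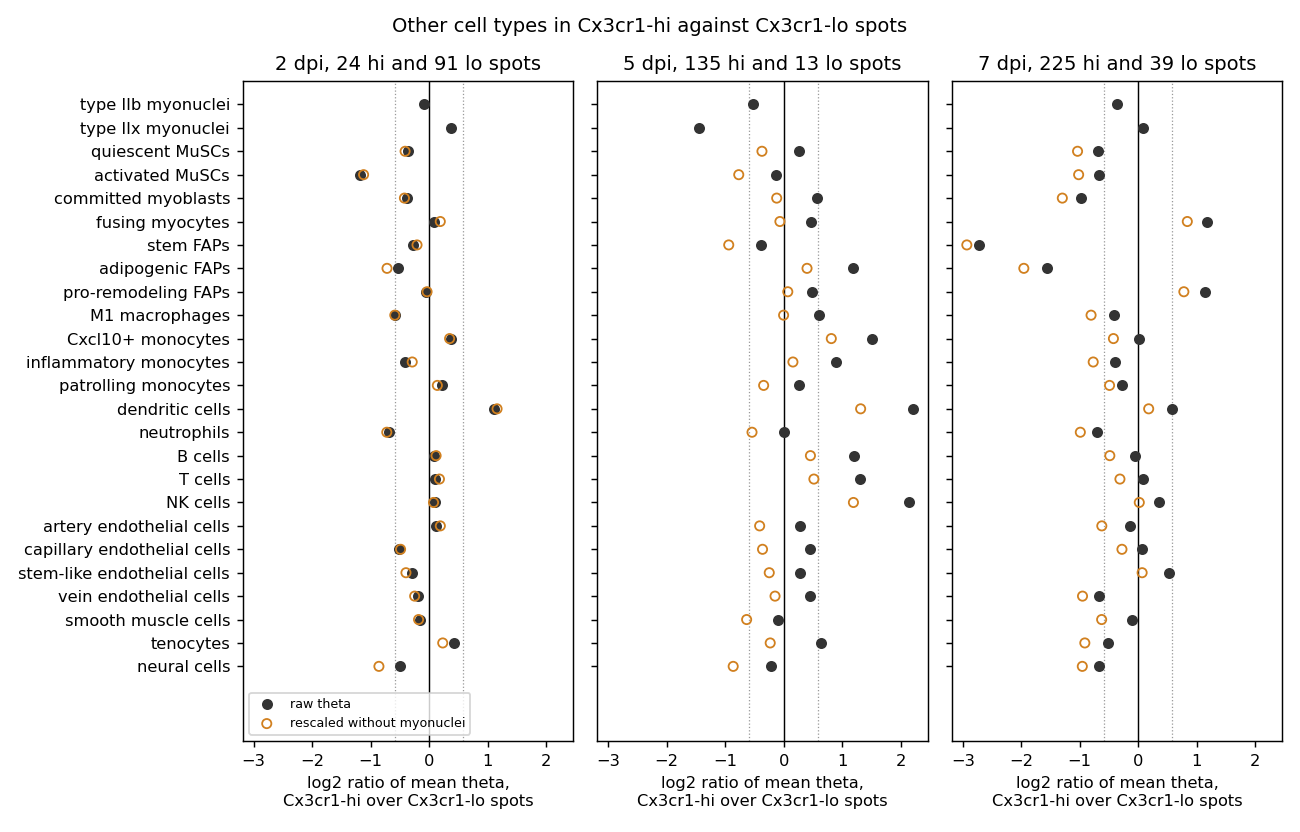
Log2 ratio of mean theta in Cx3cr1-hi over Cx3cr1-lo spots for the 25 other types in the sections at 2, 5 and 7 dpi, with filled points for theta as deposited, open points for theta rescaled without myonuclei, and dotted lines at 1.5-fold. At 7 dpi the fusing myocytes (2.25-fold) and pro-remodeling FAPs (2.20-fold) stand to the right and the stem FAPs (0.152) far to the left on both scales, whereas most points at 5 dpi shift to the left on rescaling.

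The clearest separation was at 7 dpi and concerned the myogenic and FAP types. Fusing myocytes had a mean theta of 0.247 in the 225 Cx3cr1-hi spots (lowest 0.0313, median 0.262, highest 0.482) and of 0.110 in the 39 Cx3cr1-lo spots (0.0062, 0.0897 and 0.323). The ratio was 2.25, and it was 1.79 after rescaling, 2.08 within spots of like UMI count and 1.64 within spots of like myonuclei theta. The ranges overlapped, but the median of the Cx3cr1-hi spots was 2.92 times that of the Cx3cr1-lo spots. Mixed spots lay between, at a mean of 0.153, and spots under the minimum had 0.0674. Fusing myocytes were the highest type apart from myonuclei and M2 macrophages in 209 of 225 Cx3cr1-hi spots (92.9%), 95 of 120 mixed spots (79.2%) and 28 of 39 Cx3cr1-lo spots (71.8%). Among spots under the minimum, this was so in 316 of 582 (54.3%).

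The earlier myogenic stages at 7 dpi went the other way. Committed myoblasts, which have left the stem cell state but not yet fused, had 0.00574 in Cx3cr1-hi and 0.0113 in Cx3cr1-lo spots, a ratio of 0.509. Activated MuSCs, the stem cells that have entered the cell cycle, had 0.00561 and 0.00889 (ratio 0.631), and quiescent MuSCs 0.00303 and 0.00486 (ratio 0.623). These 3 types kept their direction but lay within 1.5-fold in spots of like UMI count (0.696, 0.894 and 0.862 in the same order). Of the theta of all 4 myogenic types, fusing myocytes held 94.5% in Cx3cr1-hi and 81.4% in Cx3cr1-lo spots.

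Among FAPs at 7 dpi, the kinds of FAP differed between classes while the mean of their sum, as deposited, hardly did. The 3 FAP types together had a mean theta of 0.124 in Cx3cr1-hi and 0.120 in Cx3cr1-lo spots, against 0.0540 in spots under the minimum. The medians of the sum lay further apart, at 0.118 in Cx3cr1-hi and 0.0932 in Cx3cr1-lo spots. Pro-remodeling FAPs, the FAP type named for matrix remodeling, had 0.107 in Cx3cr1-hi spots (lowest 0.00155, median 0.104, highest 0.240) and 0.0485 in Cx3cr1-lo spots (0.00406, 0.0286 and 0.197). The ratio was 2.20, and it was 1.72 after rescaling, 2.14 within spots of like UMI count and 1.93 within spots of like myonuclei theta. This type reached a theta of 0.01 in 222 of 225 Cx3cr1-hi and 33 of 39 Cx3cr1-lo spots.

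Stem FAPs, the least committed FAP type, were the reverse at 7 dpi, with 0.00589 in Cx3cr1-hi spots (lowest 0.000404, median 0.00276, highest 0.0685) and 0.0389 in Cx3cr1-lo spots (0.00164, 0.0134 and 0.233). They were 6.60-fold higher in Cx3cr1-lo spots by the mean. The ratio of medians, Cx3cr1-hi over Cx3cr1-lo, was 0.207. The ratio of means was 0.152, and it was 0.131 after rescaling, 0.203 within spots of like UMI count and 0.165 within spots of like myonuclei theta. A few spots carried much of this, since the top 8 of the 39 Cx3cr1-lo spots held 69.8% of the stem FAP theta of that class. Without the highest spot the mean of Cx3cr1-lo spots was 0.0337. Stem FAPs reached 0.01 in 37 of 225 Cx3cr1-hi spots (16.4%) and 23 of 39 Cx3cr1-lo spots (59.0%), and they were the highest type apart from myonuclei and M2 macrophages in 7 of the 39 and in none of the 225.

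Adipogenic FAPs, the FAP type turned toward fat, had 0.0111 in Cx3cr1-hi and 0.0326 in Cx3cr1-lo spots at 7 dpi (medians 0.00427 and 0.0243), a ratio of 0.341. It stayed at 0.258 to 0.419 after rescaling and within groups of like UMI count or myonuclei theta. As a share of the theta of all 3 FAP types, pro-remodeling FAPs thus made up 86.3% in Cx3cr1-hi, 56.1% in mixed and 40.4% in Cx3cr1-lo spots, and 59.9% in spots under the minimum. Stem FAPs made up 4.76%, 15.3% and 32.4% and adipogenic FAPs 8.98%, 28.5% and 27.2% in the 3 member classes in that order. Within spots of like UMI count the pro-remodeling share was 80.9% against 40.8%, and within spots of like myonuclei theta 82.0% against 37.2%. The difference between classes was about as large in these groups as over all spots.

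**Figure D4:**
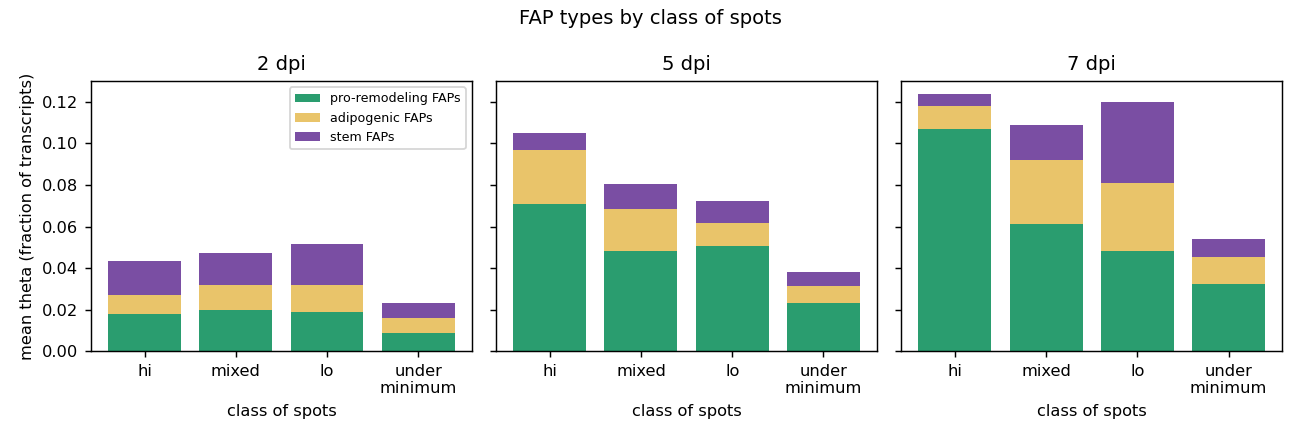
Mean theta of the 3 FAP types, stacked, in Cx3cr1-hi, mixed and Cx3cr1-lo spots and in spots under the minimum, in the sections at 2, 5 and 7 dpi. At 7 dpi the bars of Cx3cr1-hi and Cx3cr1-lo spots are almost equally tall (0.124 and 0.120), but pro-remodeling FAPs (green) fill 86.3% of the first and 40.4% of the second.

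Along the hi fraction, the 7 dpi values changed in steps rather than only between the end classes. In 5 equal bins of the hi fraction, holding 19, 37, 60, 107 and 161 spots, the mean theta of fusing myocytes rose from 0.0904 in the lowest to 0.126, 0.158, 0.195 and 0.258. That of stem FAPs fell from 0.0383 to 0.0311, 0.0179, 0.0097 and 0.00531. Pro-remodeling FAPs rose from 0.0434 in the second bin to 0.112 in the last, and adipogenic FAPs fell from 0.0400 in the second to 0.0099 in the last. The lowest bin, with 19 spots, stood out of that order for these 2 types, at 0.0530 and 0.0304. The Spearman's rho with the hi fraction over the 384 members was 0.55 for fusing myocytes and 0.51 for pro-remodeling FAPs, and 0.38 and 0.35 as partial correlations given the UMI count. It was -0.52 for stem FAPs and -0.46 for adipogenic FAPs, and -0.34 and -0.24 given the UMI count. These are descriptions over spots of 1 section.

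**Figure D5:**
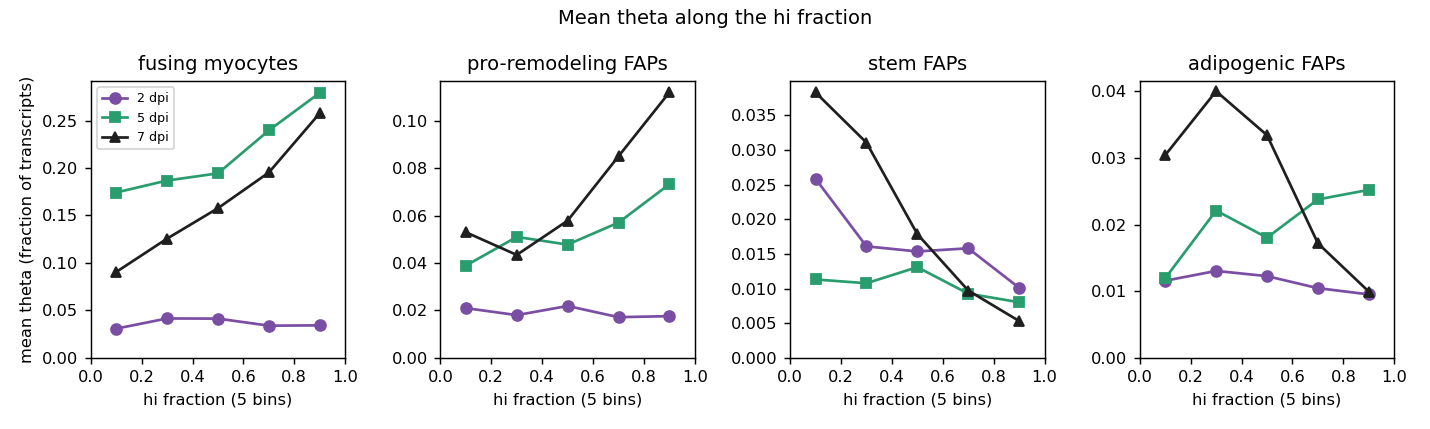
Mean theta of fusing myocytes and of the 3 FAP types (vertical axes, each from 0) in 5 equal bins of the hi fraction, with circles for 2 dpi, squares for 5 dpi and triangles for 7 dpi. At 7 dpi fusing myocytes climb from 0.0904 to 0.258 and stem FAPs drop from 0.0383 to 0.00531, whereas fusing myocytes stay low at 2 dpi, and the lowest bin at 5 dpi rests on 7 spots.

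Among the other types at 7 dpi, 4 were past 1.5-fold on the scale as deposited. Dendritic cells, which present antigen, had 0.00804 in Cx3cr1-hi and 0.00536 in Cx3cr1-lo spots, at the limit with a ratio of 1.5, but their medians gave 0.790. M1 macrophages had 0.00557 and 0.00744 (0.748), and patrolling monocytes, which the authors' reference sets apart as lacking Cx3cr1, 0.00914 and 0.0110 (0.828). Both lay within 1.5-fold on the scale as deposited. Tenocytes, the cells of tendon, had 0.0153 and 0.0219 (0.70, and 0.531 after rescaling). Type IIb myonuclei, of the fastest fibers, had 0.429 and 0.554, and type IIx myonuclei 0.0383 and 0.0359. The other 3 types past 1.5-fold, each with a mean below 0.01 in both classes and named after their values were seen, were neutrophils (0.616), vein endothelial cells (0.626) and neural cells (0.625), all lower in Cx3cr1-hi spots.

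At 5 dpi, the comparison rested on 13 Cx3cr1-lo spots, and the amount of myonuclei moved with the classes. Summed myonuclei theta had a median of 0.403 in Cx3cr1-hi and 0.605 in Cx3cr1-lo spots. Type IIb myonuclei had a mean of 0.368 and 0.530, and type IIx myonuclei 0.0263 and 0.0720, a ratio of 0.366 that was 1.14 within spots of like myonuclei theta. Of the 6 other myeloid types, 4 were past 1.5-fold higher in Cx3cr1-hi spots on the scale as deposited, while patrolling monocytes (1.20) and neutrophils (1.01) were not. Dendritic cells had 0.0115 and 0.00248 (4.63-fold, medians 0.00366 and 0.00184), with a single spot at 0.373 without which the Cx3cr1-hi mean was 0.00878. Cxcl10+ monocytes, which carry an interferon-induced chemokine, had 0.0190 and 0.00668 (2.84-fold). All 3 lymphoid types were higher, by 2.30- to 4.40-fold. Within spots of like myonuclei theta, T cells (0.780) and NK cells (0.921) turned direction and B cells were at 1.07, and after rescaling B cells (1.37) and T cells (1.43) lay within 1.5-fold. Inflammatory monocytes were 1.86-fold higher, and M1 macrophages were at the limit with 0.00751 and 0.00494 (1.52-fold). After rescaling, dendritic cells (2.49), NK cells (2.29) and Cxcl10+ monocytes (1.76) were still 1.5-fold or more higher, while M1 macrophages were at 1.0. Of the 10 types past 1.5-fold at 5 dpi, 5 kept their direction within spots of like myonuclei theta and 2 of them stayed past 1.5-fold, in the 1 group of spots that held enough of both classes.

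For fusing myocytes, pro-remodeling FAPs and stem FAPs, the end classes at 5 dpi differed less than at 7 dpi, as deposited and after rescaling. This difference between sections was not tested. Fusing myocytes had 0.274 in Cx3cr1-hi spots (lowest 0.0301, median 0.288, highest 0.492) and 0.197 in Cx3cr1-lo spots (0.0724, 0.213 and 0.328), a ratio of 1.39 that was 0.957 after rescaling. They were the highest type apart from myonuclei and M2 macrophages in 127 of 135 Cx3cr1-hi, 89 of 92 mixed and 13 of 13 Cx3cr1-lo spots. This was so in nearly all members, but also in 452 of 693 spots under the minimum (65.2%). Quiescent MuSCs (1.20), activated MuSCs (0.915) and committed myoblasts (1.48) were within 1.5-fold on the scale as deposited. Within spots of like UMI count, quiescent MuSCs (1.79) and committed myoblasts (2.15) were past 1.5-fold, and activated MuSCs (0.875) were not. Pro-remodeling FAPs had 0.0710 and 0.0506 (1.40, and 1.05 after rescaling), and made up 67.7% and 69.8% of FAP theta. Their ratio was 2.12 within spots of like UMI count, close to the 2.14 at 7 dpi. Within spots of like myonuclei theta it was 1.77, against 1.93 at 7 dpi. At 5 dpi each such comparison rested on 1 group of spots. Adipogenic FAPs had 0.0258 and 0.0114 (2.27, and 1.32 after rescaling), with closer medians of 0.0135 and 0.00983. Stem FAPs had 0.00806 and 0.0105 (0.767, and 0.521 after rescaling). Their ratio was 0.996 within spots of like UMI count and 1.70 within spots of like myonuclei theta. Tenocytes had 0.020 and 0.0129 (1.55), which turned to 0.853 after rescaling. Patrolling monocytes had 0.0125 and 0.0105 (1.20). Along the whole hi fraction the signs at 5 dpi were those of 7 dpi for 3 of these types, with a rho over the 240 members of 0.40 for fusing myocytes, 0.29 for pro-remodeling FAPs and -0.32 for stem FAPs, and 0.02 for adipogenic FAPs. The mean theta of fusing myocytes rose over the 5 bins from 0.174 to 0.187, 0.194, 0.240 and 0.279. Given the UMI count, the partial correlations at 5 dpi were 0.08, 0.06 and 0.02 for fusing myocytes, pro-remodeling FAPs and stem FAPs, lower in size than those at 7 dpi.

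At 2 dpi, members of every class lay among patrolling monocytes. Patrolling monocytes had a mean theta of 0.141 in Cx3cr1-hi, 0.147 in mixed and 0.120 in Cx3cr1-lo spots, against 0.0331 in spots under the minimum. They were the highest type apart from myonuclei and M2 macrophages in 12 of 24 Cx3cr1-hi spots, 164 of 247 mixed spots and 55 of 91 Cx3cr1-lo spots. Among spots under the minimum, this was so in 71 of 497 (14.3%). The ratio of patrolling monocytes in Cx3cr1-hi to Cx3cr1-lo spots was 1.17, within the 1.5-fold limit.

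Of the 2 types past 1.5-fold lower in Cx3cr1-hi spots at 2 dpi, the activated MuSC had the larger difference. It had 0.00878 in the 24 Cx3cr1-hi spots (lowest 0.00227, median 0.00720, highest 0.0298) and 0.020 in the 91 Cx3cr1-lo spots (0.00136, 0.0162 and 0.0786), and was 2.28-fold higher in the latter. The ratio of Cx3cr1-hi to Cx3cr1-lo spots was 0.439, and it was 0.460 after rescaling, 0.476 within spots of like UMI count and 0.374 within spots of like myonuclei theta. With hi fraction limits of 0.6 and 0.4 it was 0.684, no longer past 1.5-fold. The ranges overlapped, yet the type reached a theta of 0.01 in 7 of 24 Cx3cr1-hi and 71 of 91 Cx3cr1-lo spots. Mixed spots, at 0.0210, were like the Cx3cr1-lo spots, so the Cx3cr1-hi spots stood apart. Activated MuSCs made up 13.1% of the theta of the 4 myogenic types in Cx3cr1-hi spots and 24.5% in Cx3cr1-lo spots. Quiescent MuSCs (0.779), committed myoblasts (0.773) and fusing myocytes (1.06) were within 1.5-fold at 2 dpi.

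By the mean over all spots of each class, dendritic cells were the only type at least 1.5-fold higher in Cx3cr1-hi spots at 2 dpi. They had a mean of 0.0157 against 0.00732 (2.15-fold), but the medians were 0.00635 and 0.00525. The top 5 of the 24 Cx3cr1-hi spots held 66.6% of the dendritic theta of the class, and without the highest spot its mean was 0.0115. The difference thus lay in a few spots. M1 macrophages, at their highest at this time point, had 0.0201 in Cx3cr1-hi and 0.0300 in Cx3cr1-lo spots (0.671), and 1.05 in spots of 5000 to 10000 UMIs. Adipogenic FAPs had 0.00908 and 0.0131 (0.695, and 0.607 after rescaling). Pro-remodeling FAPs had 0.018 and 0.0187, and made up 41.3% and 36.1% of FAP theta, so the FAP mix of both classes was similar. Type IIb myonuclei had 0.447 and 0.477, and type IIx myonuclei 0.0255 and 0.0196 (1.30). The type IIx ratio was past 1.5-fold within spots of like UMI count (1.53) and of like myonuclei theta (2.03). In spots of 5000 to 10000 UMIs it was 1.79. Neutrophils, named after their values were seen, were the other type past the limit, with 0.00418 and 0.00668 (0.625).

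Dendritic cells were higher by the mean in Cx3cr1-hi spots in all 3 sections and on both scales, at 2.15, 4.63 and 1.5 before and 2.24, 2.49 and 1.13 after rescaling. In each section a few spots carried this, since the top 5 of 24, 27 of 135 and 45 of 225 Cx3cr1-hi spots held 66.6%, 76.6% and 74.3% of the dendritic theta of their class. Stem FAPs and activated MuSCs were lower by the mean in Cx3cr1-hi spots in all 3 sections on both scales. Both differences were past 1.5-fold before rescaling in some sections and not in others, and no difference between sections was tested. At 5 dpi the stem FAP ratio was 0.996 within spots of like UMI count. Within spots of like myonuclei theta it turned to 1.70, so for stem FAPs the shared direction depended on the comparison.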

How the data were processed

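The authors prepared Visium libraries from 3 frozen sections, aligned reads to mm10 with Space Ranger 1.0 and used Seurat 3.2.1 (both versions per the submitters' processing notes), and chose spots over tissue by hand. The deposited UMI counts per spot are raw. The deposited percent values give mitochondrial and ribosomal protein genes over all UMIs of a spot. The deposited theta values are fractions from the authors' BayesPrism deconvolution of each spot against a single-cell reference, without mitochondrial and ribosomal protein genes, and sum to 1 over 27 types. The methods describe a reference with fewer types than the tables. A share of transcripts is not a share of cells. Spot totals ran from 1003 UMIs upward, and low theta values of shallow spots rest on few molecules. The median spot's M2 theta times its UMI count came to 119 UMIs in mixed spots at 2 dpi and to 1061 in Cx3cr1-hi spots at 5 dpi. These products are upper figures, because they use all UMIs of a spot while the paper fitted theta on selected marker genes. Image alignments were not used, as they hold positions without barcodes.

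Classes of spots were formed within a section as given above, and the mean theta of classes of at least 10 spots was compared without a test (Python 3.11.15, pandas 2.3.3, scipy 1.17.1). On simulated data, a planted ratio of 2 was found as 2.03. This checked the calculation only, because the simulated types were independent, did not sum to 1 and had no link to depth. Members, limits and type lists were chosen with earlier results of these data known. Types with values were those at a mean of 0.01 in either class and past 1.5-fold there on either scale, and always myonuclei, myogenic types, patrolling monocytes, M1 macrophages, dendritic cells and pro-remodeling FAPs. Alternatives were other limits (a minimum sum of 0.01 or 0.05, hi fractions of 0.6 and 0.4 or of 0.8 and 0.2), spots of 5000 to 10000 UMIs, rescaling, medians, and equal weight over 5 groups of spots by UMI count or myonuclei theta that held at least 5 spots of each class (2, 1 and 3 groups by UMI count and 3, 1 and 4 by myonuclei theta at 2, 5 and 7 dpi).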

Additional observations from a re-analysis of the deposited data

Results flagged for a closer look

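Adipogenic FAPs went opposite ways in the later sections. Their mean theta in Cx3cr1-hi over Cx3cr1-lo spots was 2.27 at 5 dpi and 0.341 at 7 dpi. The difference between the sections was not tested, as each time point had 1 section. At 5 dpi the ratio was 1.32 after rescaling without myonuclei and the Cx3cr1-lo class held 13 spots.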

How the results depend on the processing

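The FAP mix and fusing myocytes at 7 dpi and activated MuSCs at 2 dpi kept their direction under every alternative that could be formed, though activated MuSCs fell within 1.5-fold (0.684) at hi fractions of 0.6 and 0.4. The pro-remodeling share of FAP theta was 45.9 percentage points higher in Cx3cr1-hi spots at 7 dpi and 58.3 by the median over spots, while at 5 dpi it was 2.12 lower and became 12.1 higher at a minimum sum of 0.01, 9.91 higher by the median and 10.5 higher within groups by UMI count (this share and its alternatives were chosen after seeing the data). All 11 types past 1.5-fold at 7 dpi kept their direction within groups by UMI count (5 stayed past 1.5-fold) and by myonuclei theta (10 stayed), against 10 of 10 and 5 of 10 at 5 dpi. Every value within groups at 5 dpi rested on 1 group of spots, against 3 and 4 groups at 7 dpi. Shares of spots followed the limits. At 2, 5 and 7 dpi the Cx3cr1-hi share was 16.6, 71.7 and 69.8% at hi fractions of 0.6 and 0.4, 3.87, 41.7 and 41.9% at 0.8 and 0.2, 13.5, 82.8 and 71.3% at a minimum sum of 0.05, 9.71, 39.6 and 42% at 5000 to 10000 UMIs, and 15.3, 67.2 and 65.3% with the larger subset at 3 times the median type (chosen after seeing the data). It was 40.2% at 5 dpi and 46.2% at 7 dpi at a minimum of 0.01. The Cx3cr1-lo share was 50.3, 10.8 and 14.6% at 0.6 and 0.4, 10.8% at 2 dpi and 4.95% at 7 dpi at 0.8 and 0.2, 38.7% at 2 dpi and 1.01% at 5 dpi at a minimum of 0.05, 32.0 and 10.4% at 2 and 5 dpi at 5000 to 10000 UMIs, and 48.9% at 2 dpi with the 3-fold limit. In each setting the Cx3cr1-hi share was lower at 2 dpi than at 5 and 7 dpi. The 3 types counted at 2 dpi became 9 at a minimum of 0.05, 9 at 5000 to 10000 UMIs, 9 by medians, 8 at 0.8 and 0.2, 7 within groups by UMI count, 6 after rescaling, and 5 with the 3-fold limit, after rescaling without M2 subsets too, and within groups by myonuclei theta. The UMI ratio of Cx3cr1-hi to Cx3cr1-lo spots was 1.05 at 0.6 and 0.4 and 1.03 at 5000 to 10000 UMIs at 2 dpi, 0.977 within groups by myonuclei theta at 5 dpi, and 2.14 at a minimum of 0.05 at 7 dpi. At 5 dpi the mitochondrial ratio was 0.460 at a minimum of 0.01 and turned to 1.08 within groups by myonuclei theta, where the ribosomal ratio was 0.964. Among single types past 1.5-fold at 5 dpi, B cells (0.758 at 0.6 and 0.4), M1 macrophages (1.0 after rescaling) and tenocytes changed direction. Tenocytes were at 0.853 after rescaling, 0.834 without M2 subsets too, 0.937 by medians and 0.837 within groups by myonuclei theta. Within groups by myonuclei theta, type IIx myonuclei (1.14), inflammatory monocytes (0.910), T cells (0.780) and NK cells (0.921) also changed direction. Among types past 1.5-fold at 7 dpi, vein endothelial cells (1.49 at a minimum of 0.05 and 1.42 with the 3-fold limit), neural cells (1.63 at 0.6 and 0.4) and dendritic cells (0.790 by medians) did so. Types within 1.5-fold were not followed in this way. Some of them turned at 5 dpi too, such as stem FAPs (1.70 within groups by myonuclei theta), fusing myocytes (0.957 after rescaling) and quiescent MuSCs (0.773 after rescaling). The cause was not tested in any of these. The 5 dpi classes could not be formed at a minimum of 0.05, at 0.8 and 0.2 or at 5000 to 10000 UMIs, and the 7 dpi classes not at 5000 to 10000 UMIs, where 5 Cx3cr1-lo spots were left. No paired analysis was possible because each time point had 1 section and no test was made.

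With 1 section per time point, nothing here measures the spread between animals. Theta values sum to 1 and come from a single fit, so classes built on 2 types bind the others to some degree. In most members at 2 dpi neither M2 subset reached 3 times the level of a typical type of the spot, a limit chosen after seeing the data.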

Other observations

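The subsets had correlations of opposite sign with M1 macrophages and neutrophils at 5 and 7 dpi. Over the 384 members at 7 dpi, Cx3cr1-lo theta followed neutrophils (rho 0.31), M1 macrophages (0.27), inflammatory monocytes (0.26) and Cxcl10+ monocytes (0.26). Cx3cr1-hi theta had a rho of -0.16, -0.17, -0.05 and 0.01 with the same types. On the scale without myonuclei the values were 0.45, 0.40, 0.37 and 0.32 for Cx3cr1-lo and -0.34, -0.33, -0.24 and -0.19 for Cx3cr1-hi theta. At 5 dpi, over 240 members, the rho with M1 macrophages was 0.10 for Cx3cr1-lo and -0.23 for Cx3cr1-hi theta and that with neutrophils 0.12 and -0.15, and on the scale without myonuclei the values were 0.25 and -0.39, and 0.25 and -0.40. At 2 dpi both subsets had a rho of 0.11 to 0.17 with neutrophils and of 0.14 to 0.31 with M1 macrophages, and dendritic cells went with Cx3cr1-hi theta (0.31) but not with Cx3cr1-lo theta (-0.04). The hi fraction had a rho with M1 macrophages of -0.30 at 7 dpi and -0.23 at 5 dpi, and -0.06 and 0.10 given the UMI count. With neutrophils it was -0.31 and -0.20, and 0.05 and 0.16 given the UMI count. Given the UMI count, these correlations were thus smaller in size, and negative only for M1 macrophages at 7 dpi. Within groups by UMI count at 7 dpi, the ratio of Cx3cr1-hi to Cx3cr1-lo spots was 0.863 for neutrophils and 1.04 for M1 macrophages. At 5 dpi, in the 1 group that could be used, both types were higher in Cx3cr1-hi spots. The part of depth in the opposite signs was not tested. These values are over spots that share a section and its depth, and the differences between them were not tested. The 4 endothelial types together had a mean theta of 0.0165 in Cx3cr1-hi and 0.0172 in Cx3cr1-lo spots at 7 dpi, 0.0183 and 0.0142 at 5 dpi, and 0.0318 and 0.0371 at 2 dpi.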
